A study of Mus musculus with 2 samples.

Results

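The adrenal gland transcripts described here carry the annotation label nonsense_mediated_decay, meaning that their reading frame ends at a stop codon placed well before the last exon junction, and they had at least 2 TPM (read abundance per transcript length, normalized to the same sum in each library) in both libraries. The members were chosen by these measured TPM values, taken from tables in the layout that the quantifier kallisto writes, so their levels are a description and carry no test. The rule found 1159 transcripts from 1003 genes. They came from 7186 annotated NMD transcripts in 4576 genes, among 141767 transcripts in all. Thus 16.1% of annotated NMD transcripts reached this level, against 30.1% of protein_coding transcripts and 15.6% of retained_intron transcripts.

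The study measured total RNA from adrenal glands of female B6CASTF1/J mice, a hybrid of C57BL/6J and CAST/EiJ, at 10 days of age. It holds 2 libraries of 1 group, biological replicates 1 and 2, untreated as far as the labels say, each made from 300 ng of RNA with ERCC spike-ins. There is no second condition, so every comparison is between transcripts, between libraries, or between the kallisto-type tables and a second set of tables in the layout that RSEM writes. The labels give each tissue its own donor, but repeat one animal and cDNA name in both descriptions. Whether the libraries come from separate animals is thus unclear, and differences between them may be technical. The p-values below cover counting error only and do not measure the spread between animals. Estimated counts on transcripts totalled 35669582 in replicate 1 and 33173579 in replicate 2.

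Nonsense-mediated decay (NMD) is a surveillance pathway that degrades messenger RNAs whose translation stops early. In the best known route, a ribosome that stops upstream of an exon junction complex, a protein mark left by splicing, lets the helicase UPF1 and the kinase SMG1 assemble on the RNA and trigger its breakdown. Many splicing regulators make use of it: they include a "poison" exon with an in-frame stop codon, or splice their own transcript out of frame, and so lower their own output. An NMD transcript seen in total RNA is what remains at steady state, so a level says nothing of how fast the transcript was made or lost.

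The markers chosen to check the tissue label were all detected. The 5 cortex markers summed to 2948 and 3214 gene TPM (from the RSEM-type gene tables) in replicates 1 and 2, and the 4 medulla markers to 738 and 735. Markers of neighbouring or blood-borne tissue were also present and differed between the libraries. The 8 liver markers summed to 5560 and 1076 gene TPM, the 8 skeletal muscle markers to 3293 and 1107, and the 4 red cell markers to 4588 and 2720. Within the muscle list, Myh4 ran the other way, at 9.40 and 92.7 gene TPM, and Actn3 had 31.8 and 30.4. The 8 kidney markers summed to 1.01 in replicate 1, where none reached 1 TPM, and to 260 in replicate 2, where each lay between 5.99 and 80.8. The 6 brown fat markers summed to 3158 and 3758. In bulk tissue, fewer cells of a type and less RNA per cell cannot be told apart, and the part of these cells in the NMD values was not tested.

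How an early stop arises is easiest to see in the sequences. The first set shows splicing factors, because their poison exons are the textbook case. Each line gives the last 15 coding bases that the member shares with its gene's leading coding transcript (the protein_coding transcript of highest mean kallisto TPM), then the bases that the coding transcript does not have, up to the stop codon in capitals. All were read from the GENCODE M21 transcript sequences on mm10 (GRCm38), 5′ to 3′.
Srsf3-201: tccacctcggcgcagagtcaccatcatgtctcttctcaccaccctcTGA
Srsf3-202, the coding partner, from the same 15 bases: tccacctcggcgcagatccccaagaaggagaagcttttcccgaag
Srsf6-201: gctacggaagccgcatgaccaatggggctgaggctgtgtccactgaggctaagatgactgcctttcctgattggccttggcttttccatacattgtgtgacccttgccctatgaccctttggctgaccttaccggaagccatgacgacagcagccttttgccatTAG
Srsf6-203, the coding partner: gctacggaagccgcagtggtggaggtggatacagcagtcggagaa
Tra2a-202: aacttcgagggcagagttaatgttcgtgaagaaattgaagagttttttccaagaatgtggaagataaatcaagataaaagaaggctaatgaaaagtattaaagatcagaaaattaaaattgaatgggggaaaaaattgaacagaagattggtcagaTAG
Srsf11-206: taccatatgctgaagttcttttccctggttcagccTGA
Rbm39-222: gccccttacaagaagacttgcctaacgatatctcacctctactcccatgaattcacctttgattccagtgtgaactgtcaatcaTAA
Hnrnpll-203: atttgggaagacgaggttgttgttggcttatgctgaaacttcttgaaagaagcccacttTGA
Tia1-208: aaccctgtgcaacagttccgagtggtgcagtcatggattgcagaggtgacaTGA
Snrnp70-204: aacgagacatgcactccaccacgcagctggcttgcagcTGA
U2af2-204: tttggcattactgagTGA
All members printed here have the new bases in a cassette exon, an exon spliced in whole between exons of the coding transcript. Splicing-list members with other layouts are not printed. In Qk-202, Son-212 and Hnrnpdl-205 the stop lies in an exon extended into an intron. In Ddx5-205, Rbm5-210 and Cirbp-201 it lies in an exon of another kind. The Srsf3 exon is 456 nt long (chr17:29039454-29039909, plus strand) and its frame closes after 34 new bases, the last 3 being the stop codon. The Srsf6 exon is 268 nt (chr2:162932815-162933082, plus strand) and adds 152 bases to the frame, stop codon included. The Tra2a exon is 306 nt (chr6:49252803-49253108, minus strand) and adds 144 bases. At U2af2-204 the first codon after the junction is already the stop: its exon of 64 nt (chr7:5068733-5068796, plus strand) adds 3 bases to the frame. U2af2-204 is listed at 0 by RSEM in both libraries, and 83.2% of its length is matched in other genes at 95% identity or more. RSEM TPM was 0.25 and 0.47 for Tia1-208, 1.55 and 0.75 for Srsf11-206, and 1.79 and 4.11 for Snrnp70-204. The other members printed in this set had at least 2 RSEM TPM in both libraries.

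The second set shows abundant members outside the splicing machinery that have the same layout. Abundant members with other layouts, such as Coq8a-211 and Ndufs6-202, are not printed.
Idh3a-204: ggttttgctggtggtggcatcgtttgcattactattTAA
Idh3a-205, the coding partner: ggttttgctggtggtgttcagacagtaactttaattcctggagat
Pnpla2-201: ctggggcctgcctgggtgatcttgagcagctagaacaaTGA
Tkt-205: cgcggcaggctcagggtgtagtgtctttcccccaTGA
Fh1-204: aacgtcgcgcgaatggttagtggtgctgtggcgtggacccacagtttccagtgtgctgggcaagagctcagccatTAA
Lgals1-202: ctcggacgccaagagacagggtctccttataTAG
Rps18-211: atcactgccattaagggtttctctgtaTAG
Ndufa6-204: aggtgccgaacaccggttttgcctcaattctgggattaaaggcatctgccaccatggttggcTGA
The stop exons are 95 nt in Idh3a-204 (chr9:54592161-54592255, plus strand), 82 nt in Pnpla2-201 (chr7:141456568-141456649, plus strand), 43 nt in Tkt-205 (chr14:30557646-30557688, plus strand) and 103 nt in Lgals1-202 (chr15:78928565-78928667, plus strand). The exons of Lgals1-202 and Rps18-211 are not unique sequence: matches of at least 40 nt at 75% identity or more were found in transcripts of 244 and 6061 other genes. The exons of Idh3a-204, Pnpla2-201, Tkt-205 and Fh1-204 had no such match.

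Most members were low. Their median was 5.89 TPM in replicate 1 and 5.39 in replicate 2, with quartiles of 3.52 and 10.7 in the former and 3.25 and 10.7 in the latter, and a median estimated count of 163 and 150 reads. Of the 1159, 565 had at least 5 TPM in both libraries, 275 at least 10, 53 at least 50 and 29 at least 100. Together they made up 1.77% and 1.85% of all transcript TPM. The SD between the 2 libraries was 12.3% of the mean for the median member. Most genes had 1 member (873 genes), 109 had 2, 18 had 3, 2 had 4, and Rbm39, an SR-related splicing coactivator, had 6.

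**Figure D1:**
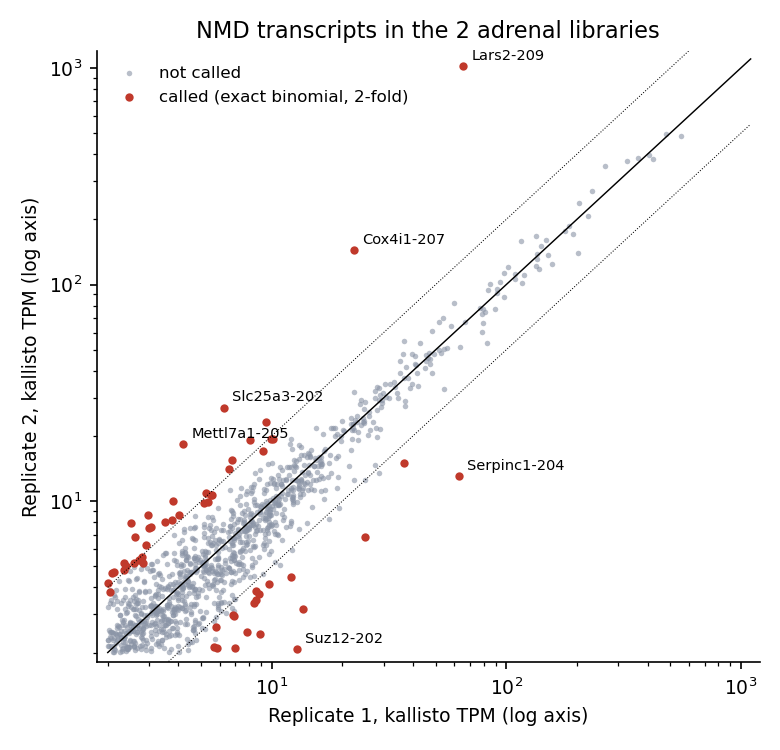
Kallisto TPM of the 1159 NMD transcripts in replicate 1 (x axis) and replicate 2 (y axis), both on log axes; the solid line marks equal values and the dotted lines a 2-fold difference. Red points are the 56 members called different between the libraries, and Lars2-209 lies farthest from the line, at 65.5 and 1020 TPM.

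By mean kallisto TPM the highest member was Lars2-209, at 65.5 and 1020 TPM, which is described with the library comparison. Rpl27a-205, from a ribosomal protein gene, had 557 and 486 TPM in replicates 1 and 2. Ppia-201, from the gene of cyclophilin A, had 478 and 497 TPM. Lgals1-202, from the gene of the sugar-binding protein galectin-1, had 404 and 396 TPM. The 2 libraries gave similar values for each of these 3. RSEM TPM was 445 and 457 for Ppia-201, near the kallisto values, but 26.5 and 17.6 for Rpl27a-205 and 3.36 and 6.38 for Lgals1-202. Cyc1-202, from the gene of cytochrome c1, had 363 and 382 kallisto TPM but 3.15 and 3.85 RSEM TPM. Idh3a-204, from a catalytic subunit gene of the mitochondrial isocitrate dehydrogenase, had 327 and 371 kallisto TPM and 137 and 158 RSEM TPM. Pnpla2-201, from the gene of adipose triglyceride lipase, had 264 and 353 kallisto TPM and 211 and 268 RSEM TPM. Both quantifications thus placed the Idh3a and Pnpla2 transcripts above 100 TPM in both libraries, while Lgals1-202 and Cyc1-202 did so in 1 of the 2 quantifications.

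The annotated stop codons fell where the label requires. Of the 1158 members with an annotated stop, 99.5% had it at least 50 nt before the last exon junction, and 6 did not. The median distance to that junction was 353 nt (quartiles 188 and 703), with 222 members having 1 junction after the stop and 933 having 2 or more. Smg1-204, from the gene of the NMD kinase itself, had 10397 nt between stop and last junction. Ndufa3-204, from a complex I subunit gene, had 56 nt. Of the stop codons, 633 were TGA (54.7%), 267 TAA (23.1%) and 258 TAG (22.3%). Members had a median length of 1074 nt, against 2414 nt for protein_coding transcripts at the same TPM minimum, and 307 had no annotated start of the coding sequence.

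Set against the leading coding transcript, which could be done for 1136 members, 3 layouts appeared. In 607 members (53.4%) the stop lay in a base that the coding transcript also has, 595 of these within its coding sequence, where the member reads it in another frame or after a changed start. Of those 595, 298 skipped at least 1 coding exon, 240 of them 1 exon, and in 275 of the 298 the skipped length was not a multiple of 3. In 478 members (42.1%) the stop lay in bases absent from the coding transcript: 245 in a cassette exon, 121 in an exon extended into an intron, 21 in a retained intron and 91 in other exons. The cassette exons had a median length of 109 nt (quartiles 81 and 154), and 88 of the 245 (35.9%) were a multiple of 3. The remaining 51 members (4.49%) kept the coding transcript's stop, with a junction after it. NMD transcripts below the TPM minimum had nearly the same layouts, with 55.4%, 39.5% and 5.11% in the same order, and 36.0% of their cassette exons were a multiple of 3.

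**Figure D2:**
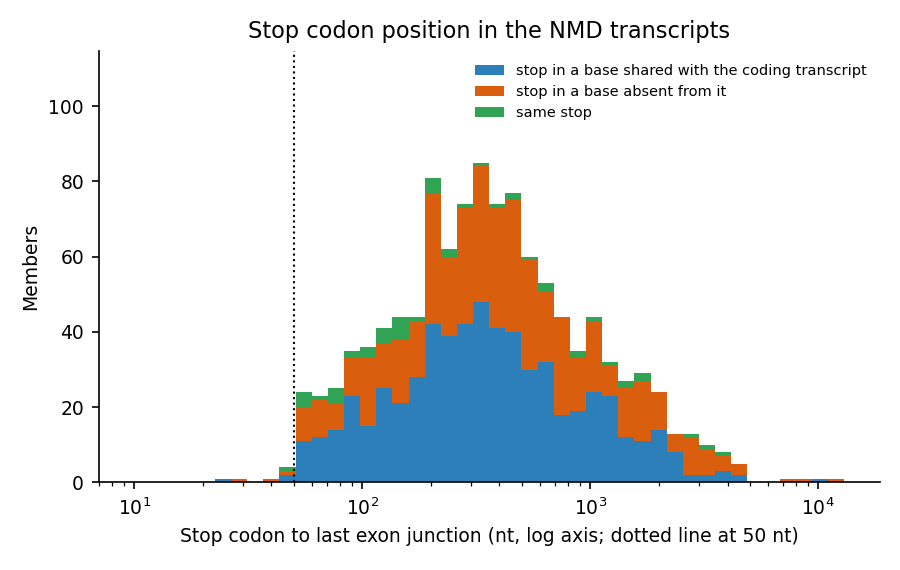
Number of members (y axis) by the distance from stop codon to last exon junction in nt (x axis, log), stacked by whether the stop lies in a base shared with the leading coding transcript, in an absent base, or is the same stop. The dotted line marks 50 nt. Members with no junction after the stop codon and the 23 that could not be classed are not drawn.

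Members took a sizeable part of their genes' transcript output by the kallisto-type values. The share, the members' TPM over the TPM of all NMD and protein_coding transcripts of the gene, had a median of 28.6% in replicate 1 and 28.5% in replicate 2 (quartiles 16.1% and 46.2% in the former). The rule used the numerator of this share, so it describes the members and supports nothing further. The share was above 50% in both libraries in 195 genes and below 5% in both in 22. In 880 of the 1003 genes the libraries lay within 10 percentage points of each other. In the RSEM-type tables the median was 16.4% and 15.8%, and 102 of the 195 genes were above 50% there too. Separately, 22 of the 1003 genes have no protein_coding transcript, so only NMD transcripts enter their share. They were not removed from these medians and counts. A member was the transcript of highest mean TPM in its gene in 262 cases.

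The share was also taken by the level of the gene, as a description: a member has at least 2 TPM, so in a gene under 10 TPM the rule itself sets a high kallisto share. Among the 96 genes with under 10 TPM of NMD and coding transcripts together, the median share was 52.4% by kallisto and 42.9% by RSEM. Among the 798 genes from 10 to 100 TPM it was 26.1% and 14.8%. Among the 109 genes of at least 100 TPM it was 27.1% and 7.07%.

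Of genes with at least 10 TPM, those with the highest shares fell into distinct kinds. Gm49356, Gm44502, Gm49325 and Gm20716 are loci with no protein_coding transcript, so their share is 100% by construction, and transcripts of other genes match their members over 100% of the length at 95% identity or more. Usp50-203, from a ubiquitin peptidase family gene, had 16.7 and 17.1 kallisto TPM beside coding transcripts at 0, but is listed at 0 by RSEM in both libraries. Tkt-205, from the gene of transketolase, an enzyme of the pentose phosphate pathway, held 95.03% and 95.8% by kallisto and 55.2% and 55.4% by RSEM. Dnajc15-201, from a mitochondrial co-chaperone gene, held 95.5% and 96.3% by kallisto and 91.1% and 92.7% by RSEM, with 148 and 161 kallisto TPM. For Dnajc15 both quantifications placed over 90% on the NMD transcript. For Pdrg1, by contrast, Pdrg1-206 held 96.4% and 98.1% by kallisto and 2.37% and 1.39% by RSEM.

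Genes of splicing factors were looked at by list. Of 28 genes for SR proteins (serine/arginine-rich splicing factors) and SR-related proteins, 25 have an annotated NMD transcript and 19 had a member (76.0%), with 27 members in all. Over all genes with an annotated NMD transcript the count was 1003 of 4576. The lists were chosen with results of these data known, and nothing particular to them is claimed from these counts. Their median share was 24.6% and 19.2% by kallisto and 22.5% and 21.5% by RSEM, and 16 of the 27 members also had at least 2 RSEM TPM in both libraries. Of the 27, 1 was called different between the libraries, Rbm39-219, which was higher in replicate 1, at 6.87 and 2.97 kallisto TPM. The test, described below, called 16.5% of all transcripts and 4.84% of all members, so 1 of 27 is near the share of members in general. Of the 19 genes, Clk1 and Tra2a were called in the test of shares described below, both with a higher share in replicate 1. That test called 12% of all genes and 7.57% of the genes with a member. By RSEM counts Tra2a was called in the same direction, but Clk1 was not called, at 72.6% and 69.3%.

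Srsf3 encodes the smallest SR protein, known for regulating its own splicing. Srsf3-201, whose poison exon is printed above, had 21.8 and 17.2 kallisto TPM against 12.6 and 9.10 for the coding Srsf3-202. Its share was 63.4% and 65.4% by kallisto, and 33.7% and 41.0% by RSEM. Both libraries thus agree within 10 points in either quantification, while the quantifications differ by more than 20 points. Srsf6-201 had 29.5 and 28.4 kallisto TPM and 15.2 and 15.7 RSEM TPM, with a share of 45.7% and 47.7% by kallisto and 35.4% and 38.0% by RSEM. Clk1, the kinase gene whose product phosphorylates SR proteins, had Clk1-210 at 21.97 and 19.5 kallisto TPM, with a share of 74.0% and 60.7% by kallisto and 70.3% and 69.2% by RSEM. Srrm2 ran the other way: Srrm2-203 had 4.74 and 2.28 kallisto TPM but 20.7 and 23.2 RSEM TPM, so that the share was 3.12% and 1.76% by kallisto and 16.9% and 19.96% by RSEM.

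Rbm39 shows how close members of a gene can be. Rbm39-222, Rbm39-225 and Rbm39-218 contain the same cassette exon of 73 nt (chr2:156178880-156178952, minus strand) and end at the same stop. Their kallisto values nevertheless differed: Rbm39-222 had 34.2 and 31.6 TPM and Rbm39-225 had 7.31 and 10.6 TPM. RSEM placed them the other way round, with 3.76 and 5.91 TPM for Rbm39-222 and 5.93 and 7.11 TPM for Rbm39-225. The summed share of the 6 members was 60.6% and 60.0% by kallisto and 25.9% and 32.2% by RSEM. Reads in an exon that transcripts share cannot be told apart by sequence, and each quantifier divides them by its own model. The part of this in the Rbm39 values was not tested.

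The hnRNP proteins and related regulators bind nascent RNA and often oppose SR proteins. Of 46 genes, 22 have an annotated NMD transcript and 16 had a member, 22 members in all, with a median share of 19.3% and 19.2% by kallisto and 13.3% and 12.7% by RSEM. Hnrnpu-206 had 78.5 and 72.8 kallisto TPM and 60.2 and 57.2 RSEM TPM, above the coding Hnrnpu-201 at 32.1 and 28.4 kallisto TPM. The 2 members of its gene together held 71.0% and 72.4% by kallisto and 62.3% and 61.2% by RSEM, the highest gene share in the list by both. Tardbp encodes TDP-43, which lowers its own messenger RNA. Tardbp-228 had 28.6 and 29.4 kallisto TPM and 20.5 and 20.2 RSEM TPM, and the share of its gene's members was 38.5% and 36.6% by kallisto and 42.9% and 43.3% by RSEM. Hnrnpa2b1-207 had 46.7 and 48.5 kallisto TPM but is listed at 0 by RSEM in both libraries. Of the 22 members, 1 was called between libraries, Tardbp-224, which was higher in replicate 1, again near the 4.84% of all members.

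**Figure D3:**
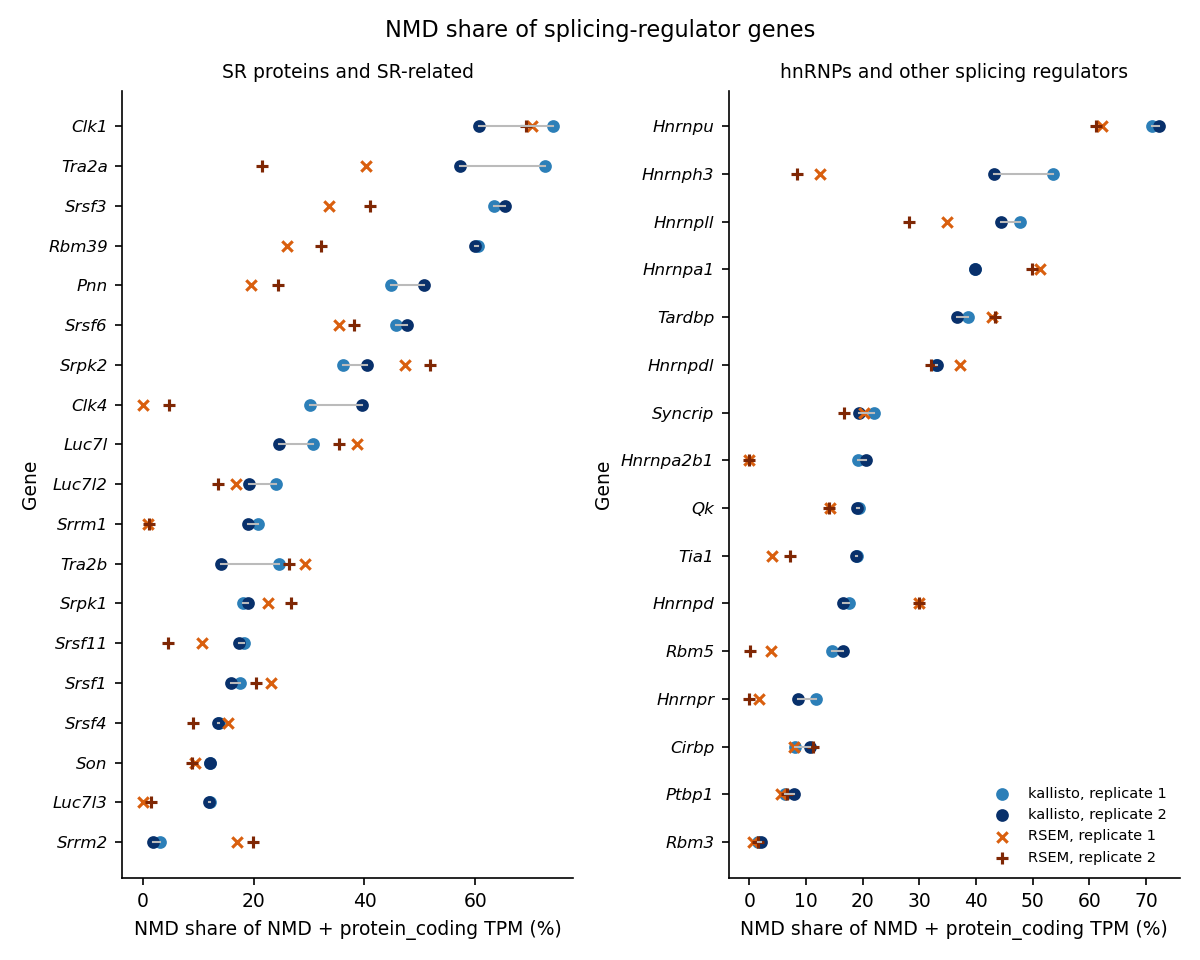
NMD share of the gene's NMD plus protein_coding TPM in percent (x axis) for the 19 SR-list genes and 16 hnRNP-list genes with a member (y axis); filled circles are kallisto values and crosses RSEM values, by replicate. The libraries lie close together for most genes, for example 71.0% and 72.4% for Hnrnpu, while Rbm39 and Srsf3 have lower RSEM than kallisto shares and Srrm2 has higher ones.

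Among 46 core spliceosome genes, 19 have an annotated NMD transcript and 10 had a member, 11 members in all. The median share was 13.5% and 16.6% by kallisto and 3.17% and 4.94% by RSEM. Ddx5-208, from an RNA helicase gene, was the most abundant, with 119 and 111 kallisto TPM and 68.0 and 66.5 RSEM TPM. Snrpe-206, from a gene of the Sm ring, had 36.9 and 29.1 kallisto TPM and 0.23 and 0.48 RSEM TPM. Of the 11, beside 4.84% of all members and 16.5% of all transcripts, 2 were called, both higher in replicate 2: Puf60-204, at 2.97 and 8.63 kallisto TPM and listed at 0 by RSEM in both libraries, and Snrnp70-204, at 2.91 and 6.24 kallisto TPM and 1.79 and 4.11 RSEM TPM.

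The decay machinery was expressed in both libraries. All 25 genes of the NMD and exon junction complex list had at least 1 gene TPM, from 3.15 to 244 in replicate 1 and 3.10 to 240 in replicate 2. Upf1 had 17.0 and 17.3 gene TPM, Smg1 had 16.7 and 15.3, and Upf2, the adaptor that activates UPF1, had 7.09 and 7.43. Of the 24 leading coding transcripts tested, 0 were called different between the libraries in either direction by the exact binomial test described below (5 had an adjusted p under 0.05 at any fold; 4.56% of coding transcripts with at least 2 TPM were called), and the median log2 difference was 0.04. Of the 25 genes, 5 have an annotated NMD transcript and 2 had a member. Magohb-202, from a gene for an exon junction core protein, had 5.93 and 4.99 kallisto TPM and 0.91 and 1.29 RSEM TPM. Smg1-204 had 2.91 and 2.28 kallisto TPM and is listed at 0 by RSEM.

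The adrenal's own genes were looked at in the same way, beside the 21.9% of all genes with an annotated NMD transcript that had a member. Of 28 cortex steroid synthesis genes, 5 have an annotated NMD transcript and 2 had a member. Mrap encodes the accessory protein that brings the ACTH receptor to the cell surface. Mrap-202 had 27.4 and 32.3 kallisto TPM and 4.06 and 6.15 RSEM TPM, beside 94.6 and 114 kallisto TPM for the coding Mrap-201. Its gene's share was 27.7% and 26.4% by kallisto and 9.69% and 10.0% by RSEM. Lipe-206, from the gene of hormone-sensitive lipase, had 9.46 and 8.30 kallisto TPM and at most 0.22 RSEM TPM. Of 20 chromaffin genes of the medulla, Th and Scg3 have annotated NMD transcripts and both had members. Th encodes tyrosine hydroxylase, the first enzyme of catecholamine synthesis. Th-203 had 24.7 and 22.9 kallisto TPM and is listed at 0 by RSEM in both libraries, and Th-204 had 10.2 and 12.0 kallisto TPM and at most 0.30 RSEM TPM. For the medulla genes, then, the kallisto-type tables placed 14.7% and 16.1% of Th output on NMD transcripts, while RSEM placed 0.23% and 0% there.

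Among the lists, those of respiratory chain and ribosomal protein genes held the members of highest TPM. Of 70 respiration genes, 19 have an annotated NMD transcript and 12 had a member, 14 members in all, with a median share of 36.2% and 39.9% by kallisto but 0.78% and 0.85% by RSEM. The gap was not uniform. Ndufs4-204, from a complex I subunit gene, had 135 and 131 kallisto TPM and 72.6 and 69.5 RSEM TPM, and the 2 members of its gene together held 87.2% and 86.8% by kallisto and 85.4% and 85.2% by RSEM. Ndufa3-204 had 178 and 177 kallisto TPM and 336 and 338 RSEM TPM. Ndufb8-205 had 223 and 206 kallisto TPM and 1.09 and 0.33 RSEM TPM, and Ndufa6-204 had 115.4 and 160 kallisto TPM and is listed at 0 by RSEM. Of 84 ribosomal protein genes, 18 have an annotated NMD transcript and 9 had a member, with a median share of 44.2% and 47.7% by kallisto and 9.60% and 14.4% by RSEM. Ribosomal protein genes have many near-identical processed copies in the genome, and the part of these in the values was not tested. Rps18-211, at 157 and 124 kallisto TPM and 0 and 0.44 RSEM TPM, is matched over 96.2% of its length in other genes.

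Smaller lists had few members. Of 24 selenoprotein genes, whose UGA codons encode selenocysteine, 6 have an annotated NMD transcript and Selenok and Selenos had a member. Selenok-203 had 29.8 and 31.6 kallisto TPM and 6.09 and 7.24 RSEM TPM. Of 11 polyamine genes, Odc1, Azin1 and Sms had a member. Odc1 encodes ornithine decarboxylase, the entry enzyme of polyamine synthesis, and Odc1-205 was alike in both tables, with 5.07 and 5.89 kallisto TPM and 4.14 and 4.72 RSEM TPM. Of 20 genes of the stress translation list, 1 has an annotated NMD transcript: Ifrd1-209 had 5.24 and 5.11 kallisto TPM and 0.12 and 2.68 RSEM TPM.

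The RSEM-type tables, a second quantification in which all 1159 members are listed, gave a smaller set. Of the 1159 members, 497 (42.9%) had at least 2 TPM in both libraries, against 70.6% of protein_coding transcripts chosen at the same kallisto minimum. The kallisto minimum chose both sets, and this comparison has no test. The median log2 ratio of RSEM over kallisto TPM (0.1 added to each) was -1.41 for members and -0.58 for those coding transcripts. In both libraries 116 members (10.0%) are listed at 0 by RSEM, against 3.86% of the coding transcripts. The kallisto value fell within the interval that the RSEM-type tables give in both libraries for 85 members. These intervals are to be read with care: for 229 members the RSEM TPM itself lay outside its interval in at least 1 library, 224 of them where it is listed at 0, and Lars2-209 was among the others. From the other side, 668 NMD transcripts had at least 2 RSEM TPM in both libraries, and 171 of these were not members.

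**Figure D4:**
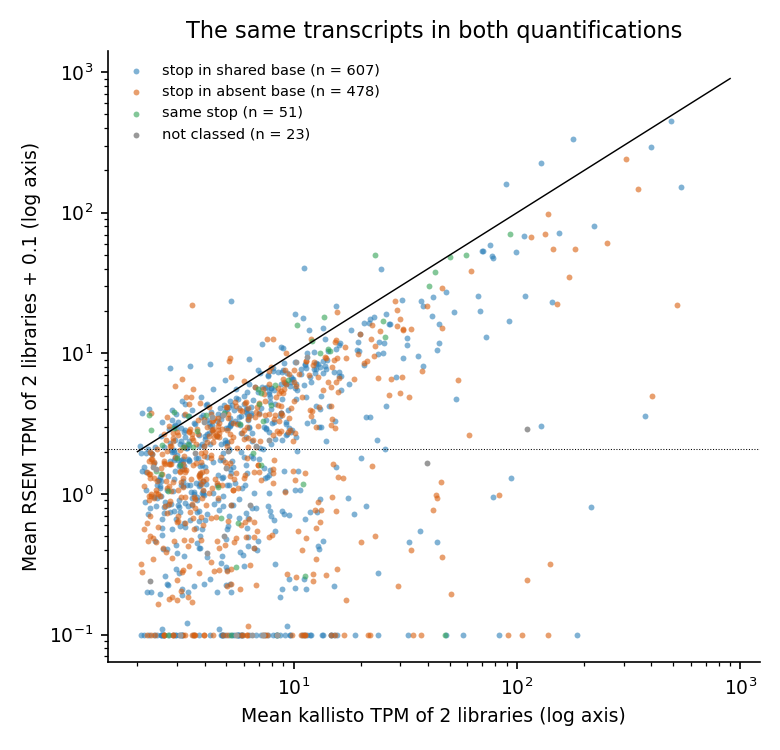
Mean kallisto TPM (x axis, log) and mean RSEM TPM plus 0.1 (y axis, log) of the 1159 members over the 2 libraries, coloured by where the stop codon lies relative to the leading coding transcript. The solid line marks equal values and the dotted line 2 TPM by RSEM; most points lie below the solid line, and the row at the bottom holds the 116 members listed at 0.

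The part of members reached by RSEM differed by length and by annotation support. Of the 174 members under 600 nt, 28.7% had at least 2 RSEM TPM in both libraries, of the 384 from 600 to under 1000 nt 35.4%, of the 249 from 1000 to under 2000 nt 53.4%, and of the 352 of at least 2000 nt 50.6%. The median log2 ratio ran from -2.70 under 600 nt to -0.91 at 2000 nt or more. By transcript support level, GENCODE's grade for how well RNA evidence covers a model, the share was 53.6% at level 1 (319 members), 48.5% at level 2 (99), 29.3% at level 3 (222) and 42.2% at level 5 (372). It thus did not fall steadily with the level, and members without a level are not counted here. Whether a member had a junction or base found in no other annotated transcript of its gene made little difference: 42.7% of the 998 with one and 44.1% of the 161 without. By layout it was 40.4% of members with the stop in absent bases, 44.0% with the stop in shared bases and 56.9% of the 51 with the same stop, where the median log2 ratio was -0.57 against -1.49 and -1.45.

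The 10 members at the extremes show how far the tables can part. Eef1b2-206, from an elongation factor gene, had 186 kallisto TPM in both libraries and is listed at 0 by RSEM. Ndufa6-204, Tbca-203, Skp1a-204 and Serbp1-209 followed, with 76.9 to 160 kallisto TPM and RSEM values of 0. In the other direction, Mrpl15-201, from a mitochondrial ribosome gene, had 5.78 and 4.70 kallisto TPM and 25.4 and 21.3 RSEM TPM. Eif4a2-210, from a translation initiation helicase gene, had 10.2 and 12.1 kallisto TPM and 40.9 and 39.4 RSEM TPM, while its coding partner Eif4a2-201 had 53.8 and 48.0 kallisto TPM and 2.06 and 1.19 RSEM TPM. For Eif4a2, reads of 1 gene were thus placed mainly on the coding transcript by kallisto and mainly on the NMD transcript by RSEM. Srrm2-203, Celf2-228 and Laptm4b-202 complete the upper extreme.

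Sequence shared with other genes touched part of the set. In 142 members (12.3%), at least 50% of the length was matched at 95% identity or more by transcripts of other genes, among them the abundant Rpl27a-205, Ppia-201 and Mtch2-203. Their reads cannot be assigned by sequence with certainty, yet 45.1% of these members had at least 2 RSEM TPM in both libraries, close to the 42.6% of the others. Repeated sequence in the stop exon gave another picture. Of the 245 cassette stop exons, 187 had no match (at least 40 nt, 75% identity) in another gene, 32 had 1 to 99 genes, and 26 had 100 or more (10.6%, against 7.42% of 1186 such exons in NMD transcripts that are not members). Of those 26, 6 (23.1%) had at least 2 RSEM TPM in both libraries, against 84 of the other 219 (38.4%). These percentages are descriptions, and the part of shared sequence in the kallisto values was not tested.

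The 2 libraries were compared transcript by transcript by a binomial test (exact, two-sided) of the rounded estimated counts, scaled by TMM, with Benjamini-Hochberg adjustment over all 56497 transcripts with a summed count of at least 20. A call needed an adjusted p under 0.05 and a 2-fold difference. This compares the libraries, not conditions, and covers counting error only. The test called 16.5% of all transcripts (8.91% higher in replicate 1 and 7.6% higher in replicate 2), and 4.56% of protein_coding transcripts with at least 2 TPM in both libraries. Of 1156 members tested, 56 were called (4.84%), 19 higher in replicate 1 and 37 higher in replicate 2. That share is near the value for coding transcripts under the same TPM minimum. With scaling to total counts the split was 27 and 26, and 45 of the 56 were called under both scalings.

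The called members were set beside their coding partners. In 49 of the 56 the leading coding transcript lay within 1.5-fold between the libraries, and in 3 it was called in the same direction. Over all coding transcripts with at least 2 TPM in both libraries, 4.56% were called. The count within 1.5-fold is not given for members not called, so nothing particular to called members is read from the 49. Cox4i1-207, from a gene of a cytochrome c oxidase subunit, had 22.5 and 145 kallisto TPM while the coding Cox4i1-205 had 1447 and 1452. Slc25a3-202, from the mitochondrial phosphate carrier gene, had 6.25 and 27.0 kallisto TPM while the coding Slc25a3-203 had 194 and 209. Suz12-202, from a Polycomb subunit gene, had 12.8 and 2.07 kallisto TPM while the coding Suz12-201 had 19.1 and 19.3. By RSEM, Cox4i1-207 had 1.09 and 0.67 TPM, Slc25a3-202 had 0.36 and 2.05, and Suz12-202 is listed at 0 in both libraries. These 3, and the genes of the next sentences, were chosen after their values were seen.

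Serpinc1-204 and Smpx-201 moved with their genes. Serpinc1 encodes antithrombin, a plasma protein made by the liver, and Serpinc1-204 had 62.6 and 13.1 kallisto TPM, beside 72.3 and 15.7 for the coding Serpinc1-205. Its RSEM TPM was 35.3 and 8.14. Smpx encodes a small protein of striated muscle, and Smpx-201 had 13.6 and 3.16 kallisto TPM, beside 12.4 and 1.82 for the coding Smpx-208, but is listed at 0 by RSEM in both libraries. These kallisto values are higher in replicate 1. The marker sums given above were also higher there for liver (5560 and 1076 gene TPM) and muscle (3293 and 1107). Within the muscle list, Myh4 ran the other way at 9.40 and 92.7, and Actn3 had 31.8 and 30.4. The part of liver or muscle cells in the values of the 2 members was not tested. Ube2e2-209 was also called with its coding partner, but was higher in replicate 2. It had 2.58 and 5.16 kallisto TPM, beside 4.95 and 10.6 for the coding Ube2e2-206, and 4.75 and 4.83 RSEM TPM. Of the 56 called members, 3 had RSEM intervals that did not overlap between the libraries, all in the direction of the call. For 1 of the 3, Lars2-209, the RSEM TPM lies outside its own interval in replicate 2. The count for members not called is not given, so nothing is read from the 3. Of the 56, 13 are listed at 0 by RSEM in both libraries, beside 116 (10.0%) of all members.

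**Figure D5:**
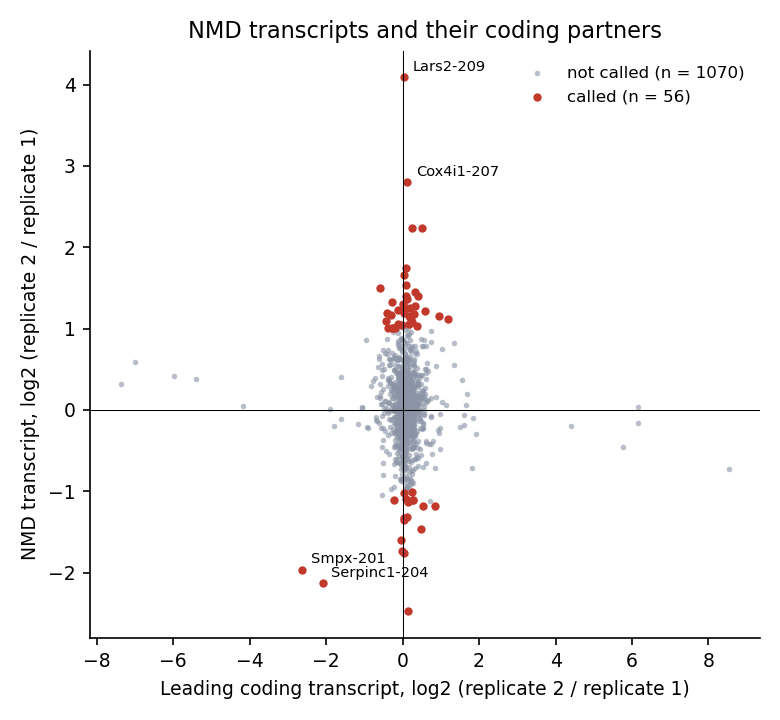
Log2 ratio of replicate 2 over replicate 1 (TMM-scaled estimated counts, 0.5 added) for each NMD transcript (y axis) and for the leading coding transcript of its gene (x axis), with the 56 called members in red and 1070 others in grey. Most called members lie near 0 on the x axis; Serpinc1-204 and Smpx-201 are low on both axes.

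Lars2-209 stood apart from all other members. Lars2 encodes the mitochondrial leucyl-tRNA synthetase, and Lars2-209 (chr9:123366954-123462666, plus strand, 3756 nt) had 65.5 TPM in replicate 1 and 1020 in replicate 2 by kallisto, and 17.0 and 288 by RSEM. The log2 difference between the libraries was 4.09, while the coding Lars2-201 had 23.6 and 22.1 kallisto TPM. The difference was shared by the retained-intron transcript Lars2-205, at 50.5 and 639 kallisto TPM but listed at 0 by RSEM, and by AA474408-201, a transcript of another locus, at 32.8 and 301 kallisto TPM and 0.82 and 0.76 RSEM TPM. A stretch of 97 nt near the end of Lars2-209 matches AA474408-201 at 94.8% identity, and 72 nt match Gm15564-202 at 98.6%. Gm42418-201, a transcript labelled lincRNA that is among the most abundant in both libraries, had 5970 and 13188 kallisto TPM and 3157 and 7835 RSEM TPM. Gm26917-202, also labelled lincRNA, was higher still but changed little, at 17030 and 17506 kallisto TPM and 9040 and 9440 RSEM TPM. The log2 difference of Gm42418-201 between the libraries was 1.27. The sequence search that gave the matches above listed no match of Lars2-209 to Gm42418 or Gm26917. The part of any of these loci in the Lars2-209 value was not tested.

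Shares were compared between the libraries by Fisher's exact test per gene, two-sided, on rounded estimated counts of all NMD against all protein_coding transcripts of the gene, adjusted by Benjamini-Hochberg over 3390 genes. A call needed an adjusted p under 0.05 and 10 percentage points. Over all genes 12% were called (5.87% higher in replicate 1 and 6.14% higher in replicate 2), and 13.8% of the genes without a member. Of 978 genes with a member, 74 were called (7.57%), 35 with a higher share in replicate 1 and 39 in replicate 2. In the RSEM-type tables the difference had the same sign in 66 of the 74 and the other sign in 7, and Tbca had no RSEM result in this test. It was called in the same direction in 38. Ippk was called in the other direction, with 65.3% and 55.2% by kallisto and 32.9% and 45.4% by RSEM. Both quantifications use the same reads, and the agreement for genes not called is not given, so nothing is read from these counts.

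Among genes called with a higher share in replicate 1, Clasrp, for a protein that interacts with the CLK kinases, had 100% of its counts on NMD transcripts in replicate 1 and 69.3% in replicate 2, and 81.1% and 55.8% by RSEM. Tra2a, an SR-like splicing activator chosen from its list after its values were seen, had 76.1% and 61.7%, and 44.2% and 24.3% by RSEM. Khdc4, an RNA-binding splicing factor, had 58.1% and 39.7%, and 46.6% and 33.3% by RSEM. For these 3 genes the RSEM counts passed the same test in the same direction. Chchd1, of the mitochondrial ribosome, had the largest kallisto difference in this direction, 58.9% and 25.8%, but 9.89% and 2.35% by RSEM.

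In the other direction Sugp2, an SR-related gene that is not on the list used above, had 40.2% and 58.0%, and 43.0% and 62.4% by RSEM. Dgkz, for a diacylglycerol kinase, had 29.9% and 47.0%, and 29.6% and 46.9% by RSEM, so that both quantifications gave nearly the same shares. Phkg2, for the catalytic subunit of liver and testis phosphorylase kinase, had 24.7% and 61.6%, and 9.39% and 28.4% by RSEM. Ptprn2, for a receptor-type phosphatase of secretory granules, had 35.8% and 66.5%, and 40.5% and 57.2% by RSEM. For Pcnp the quantifications disagreed in direction, with 19.3% and 51.5% by kallisto and 53.6% and 49.3% by RSEM.

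Near the minimum of 2 TPM, membership turned on small differences. Just inside lay Jmjd4-204 at 2.00 and 2.15 kallisto TPM, U2af2-204 at 2.00 and 3.23, and Rasa2-202 at 2.00 and 2.29. Just outside lay Adarb1-203 at 2.00 and 3.06 (its replicate 1 value fell just under 2), Snx17-202 at 2.48 and 2.00, and Wdr82-202 at 2.00 and 10.5. Wdr82-202 is higher in replicate 2 than most members, and is left out by its replicate 1 value.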

How the data were processed

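Total RNA-seq of mouse adrenal gland was analysed from the tables the authors deposited for 2 libraries of 1 group. The assembly is mm10 and the annotation GENCODE M21, per the file headers and notes deposited with them; no source used here names the quantifiers or their versions. Per the file headers, the authors' tables hold estimated or expected counts and TPM per transcript, in kallisto and RSEM layouts, the latter with interval bounds on TPM (a deposited signal column). The 97 spike-in and control sequences (0.763% and 0.712% of counts) were kept out of totals and tests. Counts were rounded to whole numbers. Library scaling used TMM (edgeR 4.0.16) and, as an alternative, DESeq2 1.42.0 size factors. Exact tests ran in scipy 1.17.1 and passed a check on simulated counts. Those counts held counting error only, which the tests assume, so the check covers the code and not other variation between the libraries. With 1 group, no edgeR contrast exists. Sequence matches used blastn 2.17.0. Stop codons and exons came from the GENCODE M21 annotation and transcript sequences.

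Members and gene lists were chosen with earlier results of these data known. Named are the 15 most abundant members, the 10 genes of at least 10 TPM with the highest share, the 5 members at each extreme of RSEM over kallisto, up to 8 members of each of 11 lists, up to 10 genes each way in the share test, and the transcripts nearest the minimum; the text gives the values of part of these. Alternatives were other TPM minimums, other scalings, count minimums, pseudocounts, denominators, the RSEM-type tables and leaving out each library.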

Additional observations from a re-analysis of the deposited data

How the results depend on the processing

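The set and the shares depend on the minimum and on the quantification. NMD transcripts in both libraries numbered 1159 at 2 TPM, 1832 at 1 TPM, 565 at 5 TPM, 4002 with no filter on low values, and 668 in the RSEM-type tables; a single library gave 1376 without replicate 1 and 1496 without replicate 2. The median share of 28.5% became 16.1% in the RSEM-type tables, 15.2% from estimated counts, 22.4% with all transcripts of the gene as denominator and 25.8% in genes of at least 10 TPM. It was 28.5% without replicate 1 and 28.6% without replicate 2. Of the members, 935 had more than 0 RSEM TPM in both libraries, where 497 had at least 2. Members called different between the libraries numbered 56, but 139 in the RSEM-type tables (73 higher in replicate 1 and 66 in replicate 2, with 21 in common with the 56) and 355 with no fold limit. Genes with a called share difference numbered 74, but 340 with no size limit; DESeq2 size factors, total scaling and no count minimum left the count of called members within 1.5 times, and the count minimums and the RSEM-type tables did so for the count of called genes. The cause of these differences was not tested. Leaving out a library leaves no comparison between libraries. No paired analysis was possible because there is 1 group. With a median of 163 and 150 reads per member, counting error alone is modest for most members. The tests here do not cover the assignment of shared reads, and no source used here says whether the RSEM-type intervals do.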
